A study of Homo sapiens with 31 samples.

Results

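DNA methylation is written, copied and removed by a small set of proteins, and 8 genes of that set were followed through exit from quiescence in MCF10A cells, an immortalised and non-tumorigenic human breast epithelial line. The 8 genes were chosen by symbol as writers (DNMT3A and DNMT3B), maintenance factors (DNMT1, UHRF1, UHRF2 and HELLS) and erasers (TET2 and TET3), of 56269 gene names in the count tables, and all 8 passed the filter on low counts. Cells of every group were first held for 2 to 3 days in medium without serum, EGF or insulin, with hydrocortisone and cholera toxin still present. The 0 h group was collected at that point. The other cells were released into full medium with 0.1% DMSO, collected at 3, 6, 9, 12, 15 and 24 h, or with 1 µM palbociclib, an inhibitor of the cyclin-dependent kinases CDK4 and CDK6, collected at 9, 12, 15 and 24 h. Poly(A) RNA was sequenced from 31 libraries in 11 groups, with 3 libraries in each group except the 24 h groups, which had 2 (replicates 1 and 3).

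DNMT1 copies methylation onto the new DNA strand after replication. UHRF1 recognises hemimethylated CpG sites and histone H3 and brings DNMT1 to them, UHRF2 is its paralog, and HELLS (also called LSH) is a chromatin remodeller of the SNF2 family that is needed for normal methylation of repeats. DNMT3A and DNMT3B place methyl groups on unmethylated CpG sites, and TET2 and TET3 are dioxygenases that oxidise 5-methylcytosine as a step towards its removal. Many genes for DNA replication are targets of E2F transcription factors, which the retinoblastoma protein holds in check until cyclin-dependent kinases phosphorylate it.

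Promoters of 4 members are shown first: UHRF1, HELLS and DNMT1, which were lower with palbociclib at all 4 times tested, and UHRF2, the paralog of UHRF1, for comparison. RefSeq windows from 250 bases before to 50 bases after each start (build GRCh38.p14) were searched on both strands for 4 words, TTTCCCGC, TTTCGCGC, TTTGCCGC and TTTGGCGC, none of which overlapped another match in these windows. All 8 members had a window, 17 windows in all, and 4 windows of 3 members held a match. Of all 34943 windows of this length, 1152 (3.297%) held one, and of 10427 tested genes with a window, 681 (6.531%) did. The stretches below run 5′ to 3′ on the gene's strand from 170 bases before the start to 10 bases after it, with matches to a word or its reverse complement in capitals. The UHRF2 stretch holds none.
DNMT1, chr19:10194944-10195123, minus strand: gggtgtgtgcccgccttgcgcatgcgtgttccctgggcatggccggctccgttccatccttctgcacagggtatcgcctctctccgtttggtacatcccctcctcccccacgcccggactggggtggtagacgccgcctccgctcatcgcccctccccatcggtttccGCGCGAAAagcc
UHRF1, chr19:4909331-4909510, plus strand: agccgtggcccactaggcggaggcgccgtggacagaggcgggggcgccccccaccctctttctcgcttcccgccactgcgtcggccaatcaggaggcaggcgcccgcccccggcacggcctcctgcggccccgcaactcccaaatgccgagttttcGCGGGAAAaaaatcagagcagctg
HELLS, chr10:94545618-94545797, plus strand: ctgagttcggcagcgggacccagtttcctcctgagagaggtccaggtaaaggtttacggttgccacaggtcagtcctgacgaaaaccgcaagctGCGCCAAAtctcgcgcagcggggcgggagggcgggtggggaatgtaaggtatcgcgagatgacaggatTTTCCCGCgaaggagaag
UHRF2, chr9:6413029-6413208, plus strand: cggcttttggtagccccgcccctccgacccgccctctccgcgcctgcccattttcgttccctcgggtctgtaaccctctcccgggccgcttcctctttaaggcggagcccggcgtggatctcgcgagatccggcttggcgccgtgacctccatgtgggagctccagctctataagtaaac

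With the first base of the transcript as position 0, the DNMT1 match began at -2, on the other strand. The UHRF1 match shown began at -14 on the other strand, and a second start of UHRF1 had a match at -160 on its own strand. HELLS had 2 matches in 1 window, at -76 on the other strand and at -8 on its own strand. No window of DNMT3A, DNMT3B, UHRF2, TET2 or TET3 held these 4 words, which says only that these letters are absent from these windows. A match of this kind is a description of the letters, not evidence that a factor bound there.

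Library totals ran from 10342358 to 20878364 counted reads. Levels are given as CPM, reads scaled to the library total with TMM factors, and as RPKM, the same value per kilobase of exon, where genes are compared with each other. The labels do not state whether replicates came from separate cultures, so the p-values take the spread among libraries as their error, and that spread may be technical only. All 10 basal epithelial markers on the list stood at 10 CPM or more in every group, and all 4 blood cell markers were below 1 CPM. Of 6 luminal markers 2 stood at 10 CPM or more in every group and 1 (PGR) below 1 CPM, and of 5 fibroblast and mesenchymal markers 1 stood at 10 CPM or more and 3 (COL3A1, PDGFRA and PDGFRB) below 1 CPM. Within groups, 27.5% of the variance lay on 1 axis. Replicate 3 of DMSO 24 h and of palbociclib 9, 12, 15 and 24 h scored 7.83 to 27.2 on it, apart from the other replicate 3 libraries (-18.5 to -7.50) and beside replicate 2 of 0 h and DMSO (12.0 to 24.8). Scores are centred within each group, so those of the 2 libraries of a 24 h group mirror each other. Palbociclib replicate 2 at 9, 12 and 15 h (3.39, -12.9 and 4.48) also lay apart from the other replicate 2 libraries. Calls that were lost without the 5 replicate 3 libraries named first are given with and without them. A 24 h group has 2 libraries, so leaving out these 5, or 1 library of the group, keeps only 1 there. The error of such a fit comes from the other groups.

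Per length of exon, UHRF2 and TET3 were the most abundant of the 8 transcripts in starved cells, and UHRF1 and DNMT1 were the most abundant 15 h after release. Mean levels at 0 h were 6.74 RPKM for UHRF2, 5.36 for TET3, 2.75 for TET2, 2.23 for DNMT3A and 2.17 for DNMT1. HELLS, UHRF1 and DNMT3B stood lower, at 0.692, 0.418 and 0.393 RPKM. At 15 h in DMSO the means were 43.6 RPKM for UHRF1, 23.9 for DNMT1, 11.04 for HELLS, 8.27 for UHRF2 and 5.76 for TET3, with TET2 at 2.61, DNMT3A at 0.986 and DNMT3B at 0.449. With palbociclib at 15 h the order was DNMT1 (9.42 RPKM), UHRF2 (7.54), UHRF1 (5.78), TET3 (5.22), TET2 (2.82), HELLS (1.25), DNMT3A (0.868) and DNMT3B (0.279). In starved and in palbociclib-treated cells UHRF2 therefore stood above UHRF1 per length, and in DMSO at 15 h UHRF1 stood above UHRF2.

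**Figure D1:**
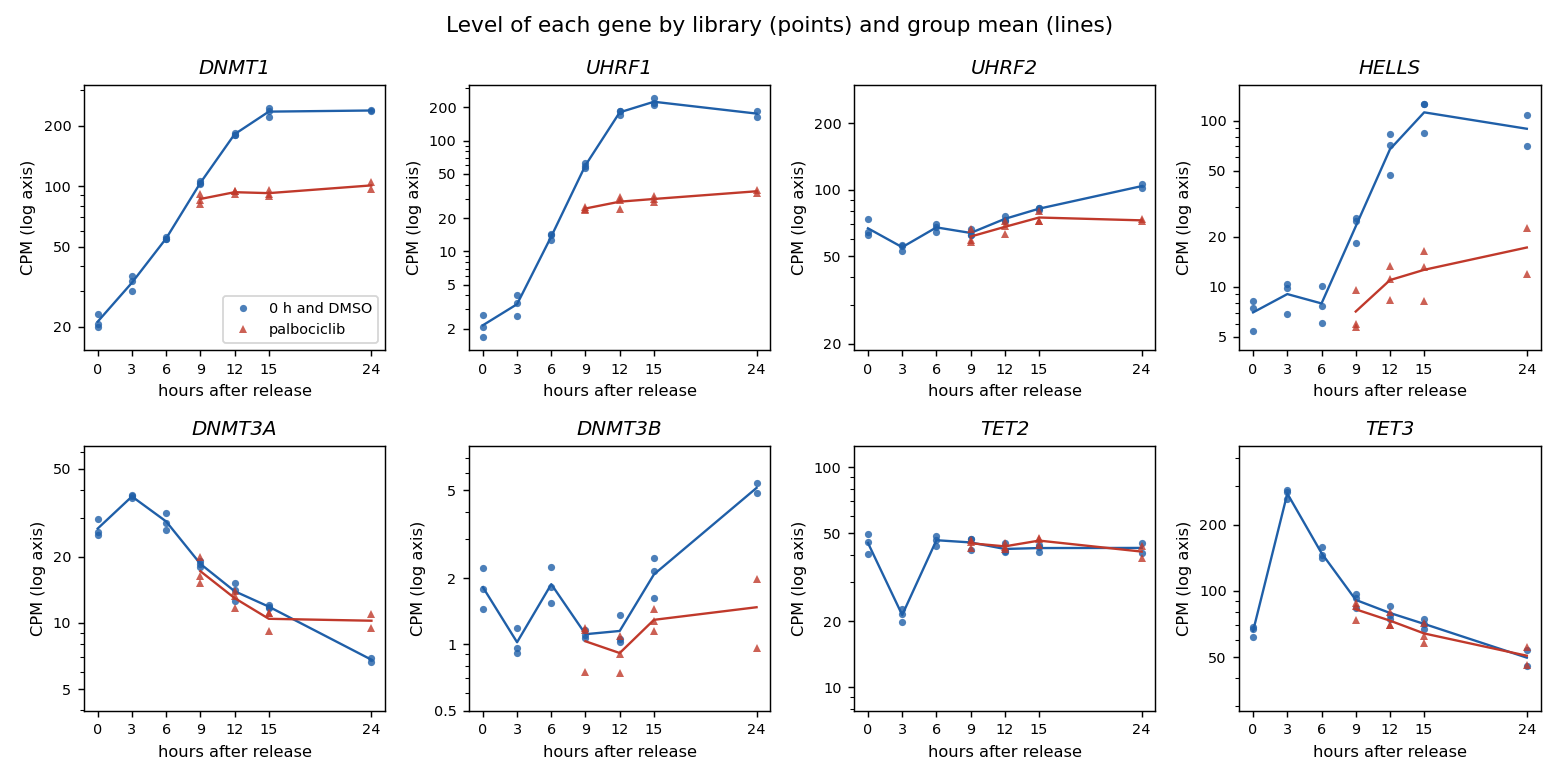
CPM of each of the 8 genes on a log axis against hours after release, 1 point per library, with lines through the group means for DMSO and palbociclib. UHRF1 climbs from about 2 CPM at 0 h to more than 200 in DMSO at 15 h, and its palbociclib libraries stay between 23.6 and 35.9 CPM.

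The maintenance genes DNMT1, UHRF1 and HELLS rose after release, each on its own schedule, and were lower with palbociclib at every time tested. UHRF1 rose most. The starved libraries held 2.09, 1.67 and 2.69 CPM (32, 29 and 45 reads), and those after 3 h held 4.001, 3.38 and 2.62 CPM. It then reached 14.0, 12.7 and 14.3 CPM after 6 h, 59.6, 63.2 and 57.0 after 9 h, 187, 169 and 184 after 12 h, 245, 217 and 212 after 15 h, and 186 and 164 after 24 h. The libraries at 0 and 3 h overlapped, and from 6 h on every DMSO library lay above every 0 h library. The mean at 15 h was 104 times that at 0 h (log2 difference 6.70 ± 0.12 (SE), adjusted p = 3e-29, edgeR quasi-likelihood test with Benjamini-Hochberg adjustment, as for all adjusted p-values below). The rise at 3 h, 0.64 (edgeR adjusted p = 0.0058), missed the threshold without replicate 2 of the 0 h group (0.48, adjusted p = 0.055). Between 15 and 24 h UHRF1 fell by 0.36 on the log2 scale (adjusted p = 0.0011).

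UHRF1 with palbociclib was above its starved level and far below DMSO. Its libraries read 24.2, 25.4 and 23.6 CPM after 9 h, 30.7, 29.3 and 24.3 after 12 h, 28.0, 31.5 and 29.6 after 15 h, and 35.9 and 33.9 after 24 h. At no time did a palbociclib library reach a DMSO library of the same hour. Ordered over all 11 groups, DMSO 15 h came first, then DMSO 12 and 24 h (overlapping), DMSO 9 h, palbociclib 24 h, palbociclib 15, 12 and 9 h (overlapping in turn), DMSO 6 h, and last DMSO 3 h and 0 h (overlapping). At 9, 12, 15 and 24 h the log2 differences from DMSO were -1.30 ± 0.09 (SE), -2.68 ± 0.08, -2.91 ± 0.08 and -2.33 ± 0.10, with adjusted p-values between 1.3e-12 and 3.3e-23. In linear terms the means were 40.7%, 15.6%, 13.2% and 19.9% of DMSO. As these are bulk samples, fewer cells carrying the transcript and less transcript per cell cannot be told apart here or below.

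DNMT1, the maintenance methyltransferase itself, rose in every step up to 15 h and then held. It read 23.1, 20.0 and 20.6 CPM in starved cells, 35.6, 33.8 and 30.001 after 3 h, 54.6, 54.6 and 55.7 after 6 h, 102, 106 and 104 after 9 h, 184, 180 and 179 after 12 h, 237, 245 and 221 after 15 h, and 239 and 236 after 24 h. No library of one of these times overlapped the time before it until 24 h. The mean at 24 h was 11.2 times that at 0 h, and the change from 15 to 24 h was 0.02 (adjusted p = 0.86).

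With palbociclib DNMT1 stayed near the level that DMSO cells had at 9 h. Its libraries read 85.6, 91.8 and 81.5 CPM after 9 h, 94.4, 91.4 and 94.1 after 12 h, 96.0, 91.5 and 89.4 after 15 h, and 105 and 96.3 after 24 h. All lay below the DMSO libraries of the same hour. At 9, 12, 15 and 24 h the log2 differences were -0.26 ± 0.06 (SE), -0.96 ± 0.06, -1.35 ± 0.06 and -1.24 ± 0.07, with adjusted p-values of 0.0071, 8.8e-15, 5.9e-19 and 1.1e-15. The 9 h call is weak: it was lost without the filter on low counts (adjusted p = 0.076), without palbociclib 9 h replicate 3 (-0.22, adjusted p = 0.11) and without the 5 libraries that stood apart (-0.22, adjusted p = 0.21).

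HELLS, the remodeller, started later. It read 7.46, 5.42 and 8.18 CPM in starved cells, 10.4, 6.82 and 9.89 after 3 h, and 7.70, 6.02 and 10.1 after 6 h, and neither time passed the test against 0 h (adjusted p = 0.39 and 0.71, and 0.027 for 3 h without the filter on low counts). It then stood at 25.8, 18.5 and 24.99 CPM after 9 h, 71.4, 47.3 and 82.8 after 12 h, 126, 84.5 and 126 after 15 h, and 108 and 70.4 after 24 h. Each of these libraries lay above every 0 h library, and those at 24 h overlapped those at 12 and at 15 h, which lay apart from each other. The mean at 15 h was 16.0 times that at 0 h (3.99 ± 0.26 (SE) on the log2 scale, adjusted p = 5.6e-15).

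HELLS with palbociclib started at the starved level and stood above it later. Its libraries read 9.56, 5.74 and 6.01 CPM after 9 h, 13.4, 11.2 and 8.36 after 12 h, 16.5, 13.2 and 8.19 after 15 h, and 22.5 and 11.9 after 24 h. The 9 h libraries overlapped those at 0 h, and from 12 h on all lay above them, with replicate 3 of the 15 h group (8.19 CPM) just over the highest 0 h library (8.18 CPM). Every palbociclib library lay below every DMSO library of its hour. At 9, 12, 15 and 24 h the HELLS log2 differences from DMSO were -1.71 ± 0.29 (SE), -2.61 ± 0.25, -3.16 ± 0.24 and -2.41 ± 0.29, with adjusted p-values of 0.00027, 1.2e-09, 4.1e-12 and 1.3e-07. The mean was then 30.8%, 16.3%, 11.3% and 19.3% of DMSO.

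HELLS also varied most between replicates among the well-counted members. Its coefficient of variation within groups had a median of 25.9% (17.5% to 43.4%), against 3.69% for DNMT1 and 6.34% for UHRF1. In 27 of 31 libraries the deviation of HELLS from its group mean had the opposite sign to the library's score on the within-group axis, and in 10 of 11 groups its lowest library was the highest on that axis. The deviation of TET2 had the opposite sign in 25 of 31 libraries and that of UHRF2 in 16. Scores ran from -31.64 to 27.16, and the HELLS deviations from -0.56 to 0.46 on the log2 scale. With the axis score as a covariate the palbociclib differences of HELLS were -1.73, -2.62, -3.17 and -2.42 at 9, 12, 15 and 24 h, and without the 5 libraries they were -1.62, -2.45, -2.93 and -2.28. All 4 calls held with the covariate, but the scores are centred within each group. The covariate could therefore hardly move these differences and is no check of them. Without the 5 libraries the calls at 9, 12 and 15 h held, and 24 h kept replicate 1 alone in each treatment. The axis was computed from the same libraries with the members left out, and its link with HELLS is a description.

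**Figure D2:**
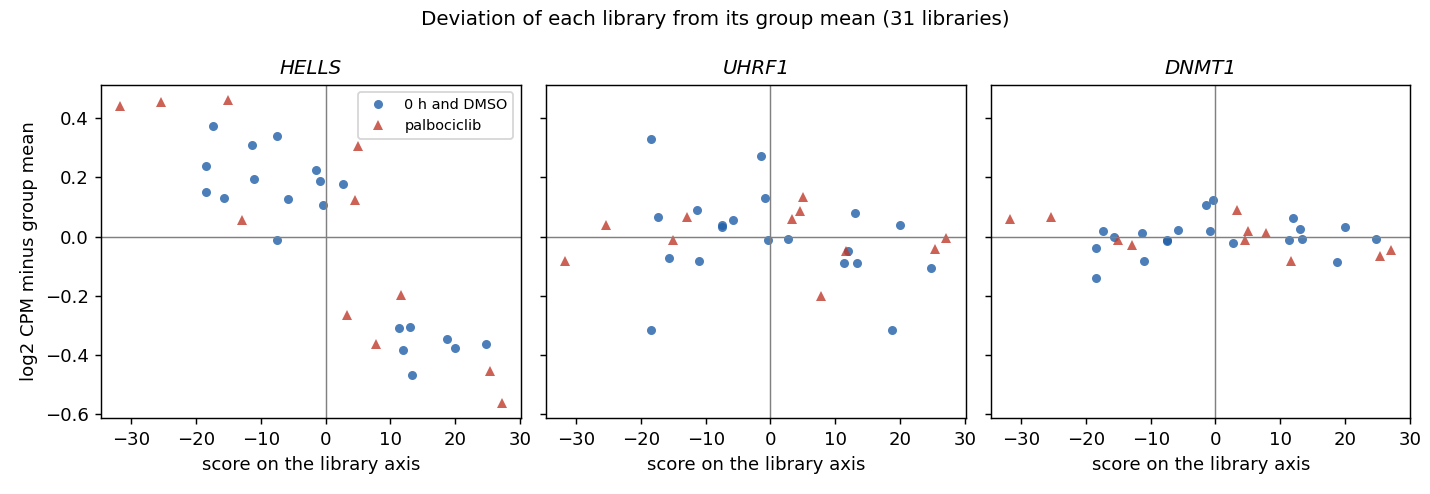
Deviation of HELLS, UHRF1 and DNMT1 from the group mean (log2 CPM) against the library's score on the main axis of within-group variation, with 1 point for each of the 31 libraries, DMSO and 0 h as circles and palbociclib as triangles. HELLS deviates against the sign of the score in 27 of the 31 libraries, UHRF1 in 20 and DNMT1 in 17.

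UHRF2, the paralog of UHRF1, moved by less than 2-fold at every time. It read 73.8, 62.3 and 64.3 CPM in starved cells, 56.2, 55.5 and 52.8 after 3 h, 80.9, 82.5 and 82.7 after 15 h, and 106 and 102 after 24 h in DMSO. The 3 h libraries lay below, and the 15 and 24 h libraries above, all 0 h libraries. Against 0 h the log2 differences were -0.28 at 3 h (adjusted p = 0.00034), 0.30 at 15 h (adjusted p = 8.9e-05) and 0.64 at 24 h (adjusted p = 8.3e-10). The difference of 0.14 at 12 h was called as well (adjusted p = 0.04), although the libraries overlapped. That call was lost without the filter (adjusted p = 0.17), with exon length trends removed (0.054), with library totals (0.05, adjusted p = 0.49) and without replicate 2 or 3 of 0 h or replicate 1 or 3 of DMSO 12 h (adjusted p up to 0.21, with 0.10 as the lowest value). The 3 h call was lost without replicate 1 of the 0 h group (adjusted p = 0.062) and in a fit of the 0 and 3 h groups alone (adjusted p = 0.053).

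With palbociclib UHRF2 was called lower than in DMSO at 24 h and at no earlier time. The differences at 9, 12 and 15 h were -0.06, -0.12 and -0.13 on the log2 scale (adjusted p = 0.81, 0.37 and 0.21). The 95% intervals ran from -0.19 to 0.08 at 9 h, from -0.25 to 0.01 at 12 h and from -0.264 to -0.002 at 15 h. The libraries of the treatments overlapped at 9 h, and at 12 and 15 h every palbociclib library lay below every DMSO library. At 24 h UHRF2 read 73.3 and 71.9 CPM with palbociclib against 106 and 102 in DMSO, with no overlap, a difference of -0.52 ± 0.08 (SE, adjusted p = 4.9e-06) that put the mean at 69.9% of DMSO.

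The de novo writers parted at 3 h and at 24 h in DMSO and were both called lower than at 0 h at 9 and 12 h. DNMT3A was highest at 3 h and then declined, whereas DNMT3B was scarce throughout, was lower at 3 h and rose late. DNMT3A read 29.7, 25.8 and 24.9 CPM in starved cells, 37.6, 36.7 and 38.2 after 3 h, 28.6, 26.5 and 31.6 after 6 h, 18.5, 19.1 and 17.98 after 9 h, 14.1, 15.2 and 12.5 after 12 h, 11.6, 11.8 and 12.1 after 15 h, and 6.94 and 6.66 after 24 h. The 3 h libraries all lay above those at 0 h, the 6 h libraries overlapped them, and all later libraries lay below. Its difference at 6 h was 0.10 (adjusted p = 0.3), and it passed without replicate 1 of the 0 h group (0.28, adjusted p = 0.013) and without the 5 libraries (0.20, adjusted p just under 0.05). Its rise at 3 h was 0.48 on the log2 scale (adjusted p = 1.5e-05), and at 24 h it stood at -1.98 ± 0.12 (SE, adjusted p = 1.2e-15) relative to 0 h.

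DNMT3A declined with palbociclib as well, to -0.65, -1.04, -1.37 and -1.40 relative to 0 h at the 4 times (all called), and differed between treatments at 24 h. Its palbociclib libraries read 19.9, 16.4 and 15.2 CPM after 9 h, 11.6, 14.0 and 13.2 after 12 h, 11.1, 9.19 and 11.03 after 15 h, and 10.98 and 9.47 after 24 h. At 9 and 12 h the treatments overlapped, and at 15 h they did not, but the difference of -0.19 missed the threshold (adjusted p = 0.33). At 24 h palbociclib stood above DMSO by 0.58 ± 0.15 (SE, adjusted p = 0.0046), or 150.4% of its mean, with no overlap between 2 and 2 libraries. This call did not hold without palbociclib 24 h replicate 1 (0.48), without DMSO 24 h replicate 3 (0.56) or without the 5 libraries (0.64). Each of these fits keeps only 1 library in a 24 h group.

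DNMT3B read 2.22, 1.44 and 1.79 CPM in starved cells (34, 25 and 30 reads), 0.917, 0.967 and 1.18 after 3 h, 1.63, 2.15 and 2.46 after 15 h, and 5.41 and 4.86 after 24 h (78 and 92 reads) in DMSO. The 24 h libraries lay above all others, while 0 h and 15 h overlapped. The mean at 24 h was 2.83 times that at 0 h (1.498 ± 0.22 (SE), adjusted p = 3.8e-07). The lower levels at 3, 9 and 12 h (-0.83, -0.69 and -0.66, adjusted p = 0.0065, 0.013 and 0.017) were lost without replicate 1 of the 0 h group (adjusted p = 0.063, 0.15 and 0.18). The 9 and 12 h calls were also lost without the filter on low counts and with DESeq2. That at 9 h was lost in a fit of its own groups only and without DMSO 9 h replicate 1, and that at 12 h without DMSO 12 h replicate 1 or 2. At 6 h DNMT3B had a mean of 1.88 CPM, overlapping 0 h, after a rise of 0.88 from 3 h (adjusted p = 0.0048).

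With palbociclib the late rise of DNMT3B was missing at 24 h. Its libraries then read 1.99 and 0.961 CPM (21 and 14 reads), below both DMSO libraries. The difference was -1.85 ± 0.27 (SE, adjusted p = 3.8e-06). Without the 5 libraries it was -1.46, from replicate 1 alone in each treatment. At 15 h it read 1.28, 1.15 and 1.45 CPM, also below the 3 DMSO libraries, and the difference of -0.69 ± 0.24 missed the threshold (adjusted p = 0.067). That value passed with the axis score as a covariate (adjusted p = 0.035) and without DMSO 15 h replicate 1 (-0.83, adjusted p = 0.043). The covariate is centred within groups and acts mainly on the error, so the pass with it adds no separate support. Differences at 9 and 12 h were -0.09 and -0.28 (adjusted p = 0.95 and 0.77), where the low counts limit what could be detected.

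The erasers responded within 3 h of release and in opposite directions. TET3 rose from 61.6, 68.7 and 66.8 CPM in starved cells to 262, 283 and 286 after 3 h, and then stood at 146, 140 and 159 after 6 h, 96.7, 83.2 and 92.9 after 9 h, 78.0, 74.9 and 85.0 after 12 h, 74.2, 67.4 and 70.6 after 15 h, and 53.8 and 45.6 after 24 h. The mean at 3 h was 4.21 times the starved mean, and these libraries lay above every other library of the series. The log2 difference was 2.07 ± 0.08 (SE, adjusted p = 1.1e-19). At 24 h TET3 was below its 0 h level, with a difference of -0.41 ± 0.10 (SE, adjusted p = 0.00047). That call did not hold without DMSO 24 h replicate 3 (-0.20) or without the 5 libraries, of which it is 1 (-0.20). Both fits keep only 1 DMSO library at 24 h.

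TET2 fell from 45.8, 40.3 and 49.7 CPM at 0 h to 22.8, 19.7 and 21.5 at 3 h and was back at 46.9, 44.1 and 48.8 at 6 h. The 3 h libraries lay below every other library of the series. The mean was 47.1% of that at 0 h (-1.09 ± 0.08 (SE), adjusted p = 1.2e-13), and the step from 3 to 6 h was 1.13 (adjusted p = 1e-13). From 6 to 24 h the differences from 0 h lay between -0.09 and 0.04, and none passed the test, although the 12 h value did without replicate 2 of the 0 h group (-0.17, adjusted p = 0.035). With library totals in place of TMM scaling, TET2 was called lower at 12, 15 and 24 h, with differences between -0.195 and -0.185.

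Palbociclib changed neither eraser by an amount that passed the test. For TET2 the differences from DMSO at 9, 12, 15 and 24 h were -0.01, 0.04, 0.11 and -0.06 (adjusted p = 0.98, 0.89, 0.40 and 0.73). The widest of the 4 intervals (95%) for TET2, at 24 h, ran from -0.25 to 0.13. For TET3 the differences were -0.14, -0.11, -0.15 and 0.03 (adjusted p = 0.61, 0.63, 0.36 and 0.91), with an interval at 15 h from -0.33 to 0.03. Palbociclib was sampled from 9 h on, so the 3 h peak of TET3 and the dip of TET2 have values in DMSO only.

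**Figure D3:**
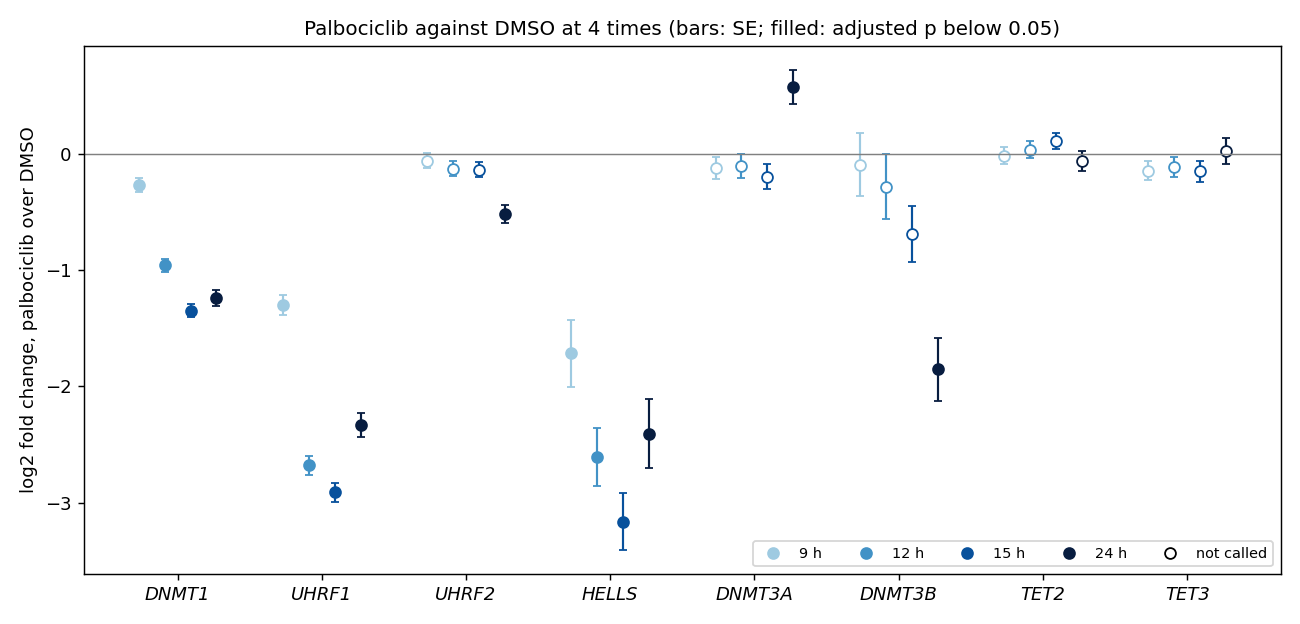
Log2 difference between palbociclib and DMSO for each of the 8 genes at 9, 12, 15 and 24 h, with bars for the SE and filled points where the edgeR adjusted p was below 0.05. UHRF1, HELLS and DNMT1 lie below 0 and are called at all 4 times. DNMT3B and UHRF2 lie below 0 at all 4 times and are called at 24 h only, and TET2 and TET3 stay near 0.

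Counted together against palbociclib's background, 3 of 8 members were lower at 9 h, where 1.08% of 15787 tested genes were, and none was higher (0.114% of genes). At 12 h 3 members were lower (4.81% of genes) and 0 higher (0.83%), and at 15 h 3 were lower (8.79%) and 0 higher (2.15%). At 24 h 5 members were lower (12.3%) and 1, DNMT3A, was higher (5.76%). Members whose palbociclib and DMSO libraries did not overlap numbered 3, 4, 6 and 6 at the 4 times, and of all tested genes 15.4%, 22.9%, 25.1% and 54% did not overlap.

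Release moved most genes, and the members' counts stand against that. At 3 h 4 members were higher than at 0 h (27.8% of genes) and 3 lower (34.4%). At 6 h the counts were 3 higher (34% of genes) and 0 lower (39.5%), and at 9 h 4 higher (35.3%) and 2 lower (39.9%). At 12 h 5 were higher (36.1%) and 2 lower (39.6%), at 15 h 4 were higher (37.4%) and 1 lower (39.3%), and at 24 h 5 were higher (36.7%) and 2 lower (38.9%).

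The first called change of at least 2-fold placed the members in order. TET2 (lower) and TET3 (higher) came at 3 h, DNMT1 and UHRF1 (higher) at 6 h, HELLS (higher) at 9 h, DNMT3A (lower) at 15 h and DNMT3B (higher) at 24 h, while UHRF2 had none. Step by step in DMSO, 7 of 8 members changed from 3 to 6 h (57.6% of genes), 6 from 6 to 9 h (34.8%), 5 from 9 to 12 h (15.2%), 4 from 12 to 15 h (7.01%) and 5 from 15 to 24 h (29.6%). All 4 changes between 12 and 15 h were rises, and they included DNMT3B (0.87, adjusted p = 0.025), which rose again by 1.296 to 24 h (adjusted p = 2.7e-05).

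Few steps between neighbouring times passed the test under palbociclib. From 9 to 12 h 1 member changed, DNMT3A (-0.39, adjusted p = 0.0091, 11.9% of genes called), from 12 to 15 h none did (2.97%), and from 15 to 24 h 1 did, TET3 (-0.34, adjusted p = 0.016, 20.5%). Against 0 h, 5 members differed at 9 h (75.7% of genes), 4 at 12 h (75.4%), 5 at 15 h (75%) and 5 at 24 h (71.1%). DNMT1 stood above 0 h by 2.03, 2.14, 2.12 and 2.25 on the log2 scale and UHRF1 by 3.50, 3.70, 3.79 and 4.01. HELLS stood at -0.01 at 9 h and 0.64 at 12 h, neither called (adjusted p = 0.99 and 0.065), and above 0 h by 0.83 at 15 h (adjusted p = 0.016) and 1.26 at 24 h (adjusted p = 0.0014).

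The palbociclib effect itself grew between 9 and 15 h for UHRF1, DNMT1 and HELLS. It moved by -1.61 ± 0.12 (SE, adjusted p = 1e-11) for UHRF1, by -1.08 ± 0.08 (1.1e-11) for DNMT1 and by -1.45 ± 0.39 (0.024) for HELLS, with 4.05% of genes called in that test of the difference. The HELLS value missed the threshold without the 5 libraries (-1.30, adjusted p = 0.051) and, in turn, without replicate 1 or 3 of DMSO 15 h, replicate 2 of DMSO 9 h, replicate 1 of palbociclib 9 h or replicate 3 of palbociclib 15 h, where values ran from -1.36 to -1.19.

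Between 15 and 24 h (2.98% of genes called) the effect moved by 0.58 ± 0.13 (SE, adjusted p = 0.007) for UHRF1, by 0.77 ± 0.18 (0.012) for DNMT3A and by -0.38 ± 0.10 (0.025) for UHRF2. Without the 5 libraries the values were 0.51, 0.89 and -0.36, with replicate 1 alone in each 24 h group, and these calls did not hold. Each call was also lost without DMSO 24 h replicate 3 and without palbociclib 24 h replicate 1, DNMT3A also without DMSO 24 h replicate 1 or palbociclib 15 h replicate 2, and UHRF2 also without any of 4 others (replicate 1 of DMSO 15 h and DMSO 24 h, replicate 3 of palbociclib 15 h and 24 h). For DNMT3B the movement was -1.16 ± 0.37 (adjusted p = 0.091), for HELLS 0.76 (adjusted p = 0.4) and for DNMT1 0.11 (adjusted p = 0.65). That of DNMT3B was -1.72 without palbociclib 24 h replicate 1, which keeps 1 library in that group. It passed with the axis covariate (adjusted p = 0.035). That of HELLS passed with the axis covariate (adjusted p = 0.021) and without the filter on low counts (adjusted p = 0.0003). As above, the covariate acts mainly on the error, so the passes with it add no separate support.

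Ratios between members with related roles, taken per length within each library, show how the balance shifted. In DMSO the UHRF1 to UHRF2 ratio went from 0.0619 in starved cells to 1.82 after 9 h, 5.26 after 15 h and 3.25 after 24 h, and it was 0.769, 0.796, 0.767 and 0.927 with palbociclib at 9, 12, 15 and 24 h. Per length, UHRF1 thus passed UHRF2 in DMSO and not with palbociclib. In CPM UHRF1 was still below UHRF2 in DMSO at 9 h (means 59.95 and 63.6), so the time of passing depends on the exon lengths used. Over the 4 times the log2 ratio was lower with palbociclib by a mean of -2.10 (p = 4.2e-05, the smallest an exact 2-sided permutation test of the 22 libraries within times can give, and 8.3e-05 adjusted over 4 ratios).

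The DNMT1 to UHRF1 ratio went the other way, from 5.20 at 0 h to 0.549 at 15 h in DMSO, with 1.86, 1.75, 1.63 and 1.52 under palbociclib. In CPM DNMT1 was still above UHRF1 in DMSO at 15 h (means 234 and 224), so which of them stands higher there depends on the exon lengths used. The mean log2 difference of this ratio between treatments was 1.35 (exact permutation p = 4.2e-05, adjusted 8.3e-05), higher at all 4 times. Palbociclib therefore lowered UHRF1 more than DNMT1.

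In DMSO the DNMT3B to DNMT3A ratio stood at 0.177 in starved cells, 0.0728 after 3 h, 0.455 after 15 h and 1.96 after 24 h. With palbociclib it was 0.361 at 24 h. Per length, DNMT3B thus stood above DNMT3A in DMSO at 24 h. In CPM it was still below DNMT3A there (means 5.14 and 6.80), so the crossing depends on the exon lengths used. Differences at 9, 12, 15 and 24 h were -0.01, -0.22, -0.47 and -2.44 on the log2 scale, so the mean of -0.79 (exact permutation p = 0.0187, adjusted 0.0223) rests mainly on 24 h. Without the 5 libraries the mean was -0.75 and the adjusted p 0.051, and without all libraries of replicate 1 or of replicate 3 the adjusted p was 0.134 or 0.144.

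The TET3 to TET2 ratio rose from 1.95 at 0 h to 17.4 at 3 h and fell to 4.27 at 6 h and 1.55 at 24 h. With palbociclib it was lower at 3 of 4 times, by a mean of -0.12 (exact permutation p = 0.0223, adjusted 0.0223), and without the 5 libraries the mean was -0.08 and the adjusted p 0.088. Without all libraries of replicate 1 or of replicate 3 the TET3 to TET2 comparison had an adjusted p of 0.13 or 0.144.

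**Figure D4:**
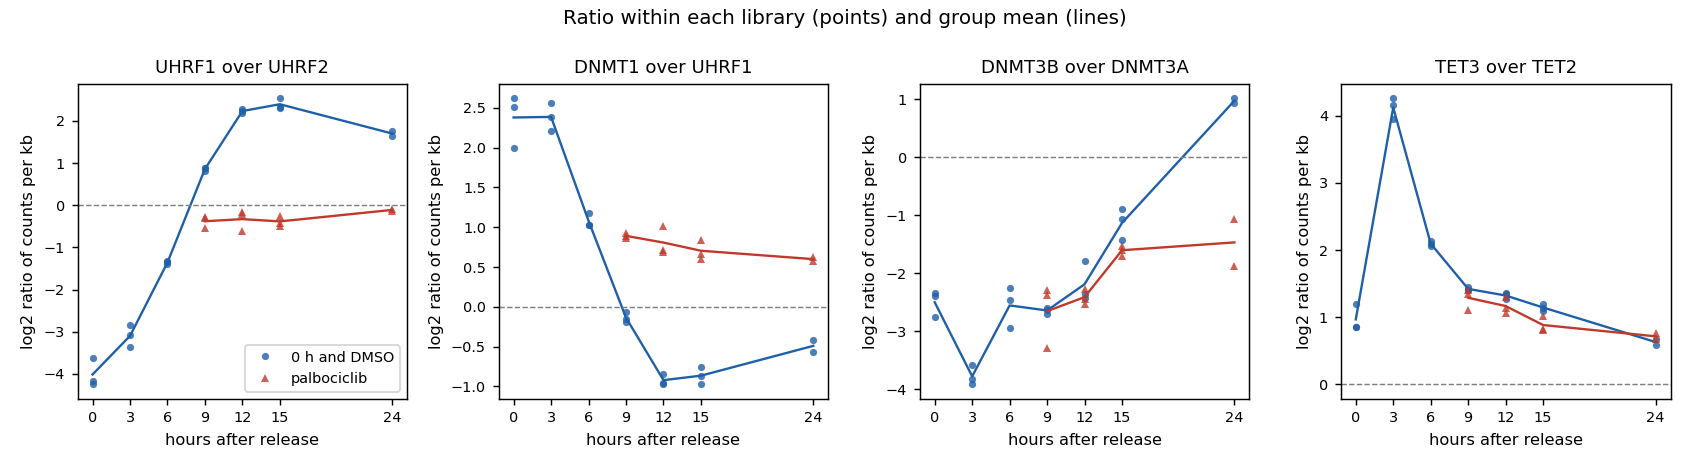
Log2 ratio of counts per kilobase of exon for 4 pairs of members against hours after release, with 1 point per library and lines through the group means for DMSO and palbociclib. UHRF1 over UHRF2 lies above 0 in DMSO from 9 h (ratio 1.82) and below 0 in the palbociclib means (ratios 0.767 to 0.927), and TET3 over TET2 peaks at 3 h (ratio 17.4).

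The other genes of the methylation machinery were read from 5 lists of 64 genes, of which 62 could be tested (DNMT3L and CXXC4 could not). Among the partners of maintenance, 4 of 9 tested genes were lower with palbociclib at 9 h and 7 of 9 at 12, 15 and 24 h, with none higher. The list medians were -0.39, -1.31, -1.50 and -1.01, against 0.00 to 0.01 over all genes. PCNA, the sliding clamp that tethers DNMT1 at replication forks, stood at 39.7 ± 2.4 (SD, n = 3) CPM with palbociclib and 228 ± 13 (SD, n = 3) in DMSO at 15 h (-2.52 ± 0.07 (SE)). CHAF1A, a chromatin assembly factor subunit, was 3.04 lower with palbociclib than in DMSO on the log2 scale at that time (7.96 against 65.0 CPM). LIG1, the DNA ligase of lagging strands, was 2.55 lower at 24 h. USP7, a deubiquitinase that binds DNMT1, and TDG, the glycosylase that removes the products of TET oxidation, passed the test at no time.

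Genes of demethylation and readers of methylated CpG sites were counted in the same way. Of 14 demethylation and base excision genes, 0, 2, 4 and 3 were lower at the 4 times and 1 was higher, NEIL1 at 24 h (0.93 ± 0.22 (SE), adjusted p = 0.0021). At 15 h UNG, the uracil glycosylase, stood at 15.7 CPM with palbociclib and 67.1 in DMSO (-2.10), and NEIL3 at 0.0365 and 6.69 CPM. TET1, the remaining TET enzyme, had between 0.79 and 2.06 CPM from 9 to 24 h and was not called (adjusted p = 0.72, 0.50, 0.89 and 0.23). Of 9 methyl-CpG readers, MBD3 was lower at 15 h (-0.41) and 24 h (-0.48), and ZBTB4 was higher at 24 h (0.29).

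Among 15 tested genes of histone marks and CpG islands, 1, 4, 4 and 3 were lower and 2 were higher at 24 h (OGT, 0.31, and KDM1B, 0.24). WHSC1, also called NSD2, which methylates histone H3 at lysine 36, was lower with palbociclib by 1.66 at 15 h and 2.16 at 24 h on the log2 scale. Of 15 genes for the methyl donor and 2-oxoglutarate, 0, 3, 5 and 6 were lower, and 2 were higher at 15 h and 2 at 24 h. SHMT1 and MTHFD1, enzymes of folate metabolism, were lower at 15 h (-0.96 and -0.54), while of the isocitrate dehydrogenases IDH1 was higher by 0.21 and IDH2 lower (-0.58). At 24 h IDH2 was lower as well (-0.64) and IDH1 was not called (adjusted p = 0.063). Over all 5 lists 5, 16, 21 and 20 of 62 genes were lower and 0, 0, 2 and 6 higher, where 1.08%, 4.81%, 8.79% and 12.3% of all tested genes were lower and 0.114%, 0.83%, 2.15% and 5.76% higher. These shares of all genes are also the ones to set beside the counts of each list. The replicative helicase genes MCM2 to MCM7 were lower in 6 of 6 at each time, with medians of -1.24, -2.48, -2.81 and -1.86.

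**Figure D5:**
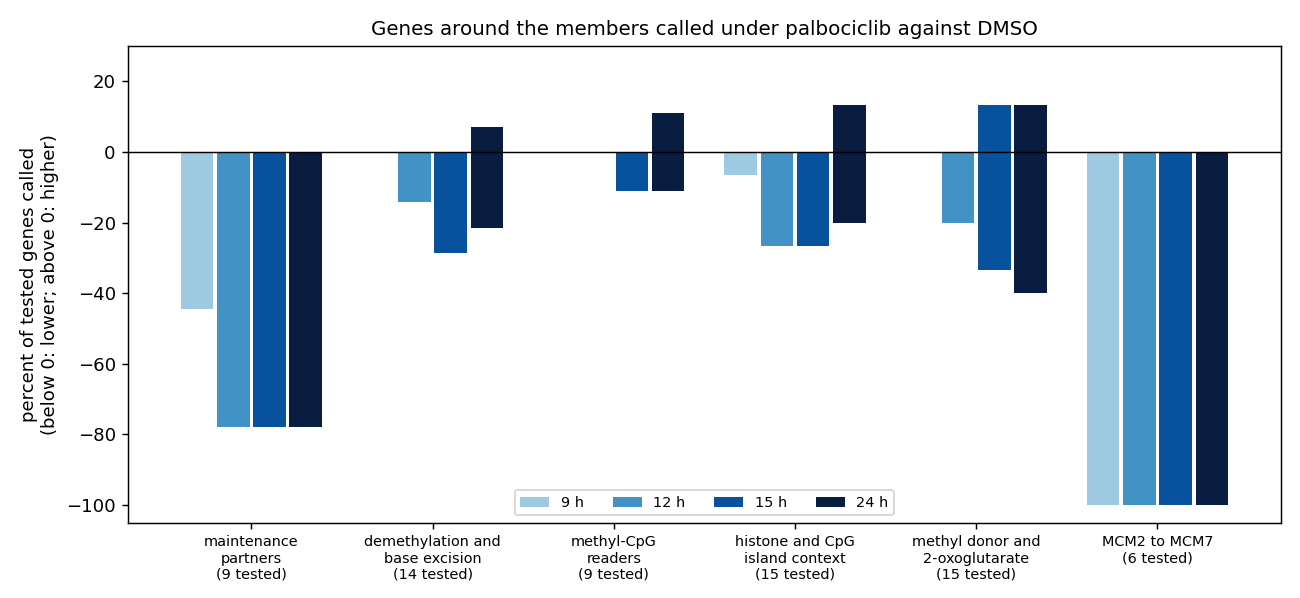
Percent of tested genes called lower (bars below 0) and higher (bars above 0) with palbociclib at 9, 12, 15 and 24 h in each of the 5 pathway lists and among MCM2 to MCM7. The maintenance partners reach 7 of 9 lower from 12 h, and the methyl-CpG readers do not pass 1 of 9 lower.

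Across the 11 group means, the 4 genes whose pattern came nearest to HELLS by Pearson's r on log2 CPM included MCM4 (0.9957), PCNA and RFC4. For UHRF1 they were POLE2 (0.9909), MCM3, DDX46 and MCM6, and for DNMT1 CCDC138 (0.9893), DDX46, DPYSL3 and HAT1. DNMT3A was nearest to NOTCH3 (0.9875), TET3 to METRNL (0.9898), TET2 to YEATS2 (0.9837), UHRF2 to AURKA (0.9508) and DNMT3B to KBTBD4 (0.9287). Pearson's r does not compare the size of the changes. Group means of AURKA spanned 5.88 on the log2 scale and those of UHRF2 0.92. The spans were 0.77 for KBTBD4 and 2.35 for DNMT3B, and 0.97 for DDX46 and 6.64 for UHRF1. The groups share a time course and a 0 h sample, so high values are common and are given as a description. Among the members themselves, r was 0.989 between DNMT1 and UHRF1, 0.869 between UHRF1 and HELLS, -0.813 between DNMT1 and DNMT3A and -0.726 between TET2 and TET3.

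In the files' annotation (GENCODE 25, GRCh38.p7) DNMT1 lies on chromosome 19 from 10133345 to 10231286 (minus strand, 9796 bases of exon) and UHRF1 on chromosome 19 from 4903080 to 4962154 (plus, 5145). UHRF2 lies on chromosome 9 from 6413151 to 6507054 (plus, 9919) and HELLS on chromosome 10 from 94501434 to 94613905 (plus, 10148). DNMT3A lies on chromosome 2 from 25227855 to 25342590 (minus, 12020) and DNMT3B on chromosome 20 from 32762385 to 32809356 (plus, 4630). TET2 lies on chromosome 4 from 105145875 to 105279816 (plus, 16474) and TET3 on chromosome 2 from 73986404 to 74108176 (plus, 12271). Values are sums over all exons of a gene, so isoforms were not told apart. Of the exon bases, 0.70% of DNMT1 and 4.32% of HELLS overlapped another gene on the same strand (S1PR2 and RP11-119K6.6), and the other 6 shared none on either strand.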

How the data were processed

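RNA of 31 MCF10A libraries was sequenced as single 75 nt reads from a stranded poly(A) kit. The tools were TopHat2 2.1.1, Bowtie2 2.2.9, Subread 1.5.1 and FastQC 0.11.3, with GRCh38.p7, per the submitters' processing notes. The authors deposited raw counts per gene made, per the file headers, with featureCounts 1.5.1 on GENCODE 25, with no strand option and no reads that map to several places, so antisense overlaps cannot be separated.

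Here 15787 of 56269 gene names passed edgeR's filterByExpr. Counts were scaled by TMM (factors 0.927 to 1.081) and fitted once over all 11 groups with the quasi-likelihood test of edgeR 4.0.16 (R 4.3.3; 20 residual degrees of freedom, common biological coefficient of variation 6.55%). A gene was called at a Benjamini-Hochberg adjusted p under 0.05 over all tested genes. Standard errors are the log2 difference over the square root of F, and 95% intervals use the t quantile. The files count by gene name, and 178 names stand on more than 1 chromosome. Of 29 replicate pairs none had identical counts, and their chi-square per degree of freedom was 2.96 to 16.7. Ratios used (count + 0.5) per kilobase, tested by exact permutation within times. All 8 members are named. Pathway genes named are among the 2 with the smallest p per list, time and direction, and nearest genes are the 4 with the highest r among 11148 genes. USP7, TDG, TET1 and IDH2 were named for their roles after their values were seen. Some genes that the rule names are not reported here. Simulated 15 h counts with known changes were used as a check: 77.6% of 67 genes changed 1.5-fold, 97.0% of 67 changed 2-fold and 98.5% of 66 changed 4-fold were recovered. Of the 15787 genes, 8 others were called. The changed genes had a mean above 2 CPM, so the check does not cover recovery below that. The within-group axis was not simulated.

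Alternatives were size factors in the style of DESeq2, library totals, no filter, DESeq2 1.42.0, own groups only, a replicate block, a within-group axis as covariate, removal of exon length trends, and leaving out libraries. The axis and the exon length trends were built from deviations centred within groups, so these settings act mainly on the error and could hardly move the differences. A change of sign in a value called under neither setting was not counted as a reversal. The genes and lists were chosen with earlier results of these data known.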

Additional observations from a re-analysis of the deposited data

Results flagged for a closer look

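For 5 members the palbociclib effect differed between times in a test of the difference itself (edgeR quasi-likelihood, Benjamini-Hochberg adjusted over all tested genes). On the log2 scale the effect at 15 h minus that at 9 h was -1.61 for UHRF1, -1.08 for DNMT1 and -1.45 for HELLS. The effect at 24 h minus that at 15 h was 0.58 for UHRF1, 0.77 for DNMT3A and -0.38 for UHRF2. Without the 5 libraries that stood apart the last 3 were 0.51, 0.89 and -0.36, with replicate 1 alone in each 24 h group. That of HELLS was -1.30. These calls did not then hold.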

How the results depend on the processing

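The 8 members had 96 changes that were recomputed under the alternatives, 1496 values in all. Of these, 1428 kept their side of the threshold, 53 lost their call, 15 gained one and 0 reversed. Values called under neither setting could change sign within the 1428. The 1428 include values with the axis covariate or with exon length trends removed, settings that act mainly on the error. Where a value moved, the cause was not tested unless fewer samples or genes entered. Counts at 24 h without the 5 libraries, or without 1 of the 24 h libraries, come from fits with only 1 library in a group. Without the 5 libraries, members higher with palbociclib at 24 h went from 1 to 0, members lower at 24 h against 0 h from 2 to 1, and members with a moved palbociclib effect between 15 and 24 h from 2 to 0 (upward) and from 1 to 0 (downward). The last count was also 0 without the filter and with own groups only, and 2 with the axis covariate. Members lower at 9 h against 0 h went from 2 to 1 without the filter, with DESeq2 and with own groups only, and those lower at 12 h from 2 to 1 without the filter and with DESeq2. Library totals gave 3 in place of 5 members higher at 12 h, and 2 in place of 1 lower at 15 h. Leaving out 1 library at a time gave 0 to 1 member higher with palbociclib at 24 h. Against 0 h it gave 1 to 3 lower at 3 h, 3 to 5 higher at 6 h, 1 to 2 lower at 9 h, 4 to 5 higher and 1 to 3 lower at 12 h, and 1 to 2 lower at 24 h. For the move between 15 and 24 h it gave 0 to 2 upward and 0 to 1 downward. The DNMT3B to DNMT3A ratio was -0.75 without the 5 libraries (exact permutation, adjusted p = 0.051) and -0.86 to -0.66 with all libraries of 1 replicate number left out, and the TET3 to TET2 ratio was -0.0829 (adjusted p = 0.088) and -0.149 to -0.0895.

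At 9, 12 and 15 h same-numbered palbociclib and DMSO libraries had correlations of their deviations between -0.2489 and 0.1135, so they did not deviate together. Palbociclib replicate 3 and DMSO replicate 2 had correlations of 0.1535, 0.1367 and 0.2517. Whether libraries are paired in another way was not tested. Within 0 h and DMSO 3 to 15 h the correlations were 0.2200 to 0.4223 for replicate 2, 0.1141 to 0.3642 for replicate 3 and 0.0024 to 0.0984 for replicate 1, so the libraries of replicates 2 and 3 did deviate together there. With a replicate block no member's call changed in the palbociclib, release or time comparisons (DNMT1 at 9 h -0.26, edgeR adjusted p = 0.0017), and the ratios were -2.10, -0.79, -0.12 and 1.35 (sign-flip permutation, adjusted p = 0.00195, 0.0352, 0.0352 and 0.00195) for UHRF1 to UHRF2, DNMT3B to DNMT3A, TET3 to TET2 and DNMT1 to UHRF1. Depth limits DNMT3B, whose libraries held few reads.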
